A study of Mus musculus with 8 samples.

Results

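Radial glia are the neural stem cells of the developing cortex, and intermediate progenitors are the neurogenic cells they give rise to; 32 genes that mark these cells were followed in cortex without Ptbp2. Of the 32, 22 are radial glial genes and 10 are intermediate progenitor genes, out of 21451 gene symbols on the array. Members were taken by name, from probe sets annotated to exactly 1 gene symbol, and a gene was tested where at least 4 of its probe sets had a mean log2 signal at or above the median of the table (6.84). That left 29 members, 20 radial glial and 9 intermediate progenitor, among 12960 genes tested. Slc1a3, the glutamate and aspartate transporter of radial glia, and Prom1, an apical membrane protein, had no probe set with a single symbol and are not analysed here. Neurog1, a proneural transcription factor, had 4 probe sets, all below the signal filter, with wild type means between 4.40 and 6.60 and knockout means between 4.73 and 6.56, and was not tested.

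The arrays were Affymetrix exon arrays, hybridised with cortical total RNA of mice collected at embryonic day 18.5, 8 samples in all. A group of 4 samples was wild type and a group of 4 was Ptbp2 knockout, and all of them had mixed CD1 and C57BL/6 ancestry. The labels name neither the allele nor a Cre driver, and they do not say that each sample was a separate embryo, so p-values measure the spread between these samples. Ptbp2, the neuronal polypyrimidine tract binding protein, checked the labels: its log2 signal was 11.20 ± 0.14 (SD, n = 4) in wild type and 5.95 ± 0.34 (n = 4) in knockout cortex, the latter below the signal filter. Its paralog Ptbp1, which progenitors express, was at 10.06 ± 0.13 and 10.06 ± 0.082. The cortical genes Emx1, Neurod2, Neurod6 and Tbr1 were above the signal filter on every array, with lowest values of 8.06, 11.41, 11.29 and 9.27. Array medians lay between 6.82 and 6.93. Values without both wild type 3 and knockout 3, which had the lowest radial glial and the highest intermediate progenitor level below, are given where they differ. In bulk tissue, fewer cells of a type and less RNA per cell cannot be told apart.

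Radial glia line the ventricle, span the cortical wall with a long process, and divide either to renew themselves or to produce neurons directly or through intermediate progenitors. Notch signalling and transcription factors of the SOX, PAX and EMX families maintain them. Intermediate progenitors leave the ventricular surface, express Eomes (TBR2) and the proneural factor Neurog2, and divide to give neurons. By the end of gestation many radial glia are passing into an astrocyte programme, so several of the radial glial genes here (Glul, Slc1a3, Sox9, Tnc, Fabp7, Hopx) are also genes of young astrocytes. Ptbp1 acts in progenitors and gives way to Ptbp2 when neurons form. The question the comparison addresses is whether the marker genes of either progenitor class differ in level, or in the use of single probe sets, when Ptbp2 is missing.

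Among the promoters (build GRCm38.p6), 3 are shown as examples. In their last 250 bases before the RefSeq start site they carry letters linked in textbooks to Notch signalling, proneural factors or activity-dependent transcription. Other members carry such letters too, as counted below, and Nr2e1 holds 2 kinds, as Btg2 and Fabp7 do. Fabp7 and Lfng belong to the radial glial list, and Btg2 is the intermediate progenitor gene with the largest difference below. Capitals mark the RBPJ core (TGGGAA or TTCCCA), the proneural E-box (CAGATG or CATCTG), the SOX core (CATTGT or ACAATG) and the cAMP response element (TGACGTCA), which were searched on both strands and can overlap.
Btg2 (chr1:134079156-134079405, minus strand): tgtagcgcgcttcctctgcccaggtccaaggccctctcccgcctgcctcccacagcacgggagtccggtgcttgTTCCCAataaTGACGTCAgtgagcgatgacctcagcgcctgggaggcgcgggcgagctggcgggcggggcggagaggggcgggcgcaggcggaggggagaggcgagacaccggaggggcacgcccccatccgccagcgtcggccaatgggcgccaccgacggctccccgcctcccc
Fabp7 (chr10:57784673-57784922, plus strand): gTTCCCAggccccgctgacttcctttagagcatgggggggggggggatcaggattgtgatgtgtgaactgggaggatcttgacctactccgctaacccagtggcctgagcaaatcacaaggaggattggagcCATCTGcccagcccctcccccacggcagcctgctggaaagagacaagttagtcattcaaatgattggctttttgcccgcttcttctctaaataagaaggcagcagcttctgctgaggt
Lfng (chr5:140607091-140607340, plus strand): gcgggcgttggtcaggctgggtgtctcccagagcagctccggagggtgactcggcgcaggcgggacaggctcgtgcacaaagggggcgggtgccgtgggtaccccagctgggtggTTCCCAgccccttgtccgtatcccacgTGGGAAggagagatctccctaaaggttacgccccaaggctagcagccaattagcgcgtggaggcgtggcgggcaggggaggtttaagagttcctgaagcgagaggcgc

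In Btg2 the RBPJ letters began 176 bases and the cAMP response element 166 bases before the start. Fabp7 held the RBPJ letters from 249 and the E-box letters from 118 bases before the start, and Lfng held the RBPJ letters at 135 and 108 bases. Promoters were matched by symbol for 21 of the 22 radial glial genes and 7 of the 10 intermediate progenitor genes. Of these, 7 radial glial genes and 1 intermediate progenitor gene held the RBPJ letters, against 24.1% of 27025 genes with a promoter. The cAMP response element was in 2 radial glial promoters (Pax6 and Nr2e1) and 2 intermediate progenitor promoters (Btg2 and Sstr2), against 1.77% of all. The E-box letters were in 2 radial glial genes (Fabp7 and Ddah1) and no intermediate progenitor gene, against 16.3% of all, and the SOX letters were in Neurog1 alone, against 12.2% of all. The cAMP response element was added to the search after the Btg2 sequence had been seen. Guanine and cytosine made up a median of 58.6% of the radial glial stretches and 62% of the intermediate progenitor stretches, and 52.4% over all promoters. A match is a string of letters and not a shown binding site.

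None of the 29 progenitor genes passed the test between knockout and wild type cortex (limma with Benjamini-Hochberg adjustment over all genes tested; smallest adjusted p = 0.61). The same test called 15 of 12960 genes, or 0.116%, of which 0.0540% were higher and 0.0617% lower in knockout. At an unadjusted p under 0.05 there were 3 members (10.3%), namely Btg2 and Mfng, higher in knockout, and Sox9, lower, against 6.49% of all genes (2.70% higher and 3.79% lower). Over every alternative setting tried the count past the threshold stayed at 0 members. The 95% intervals of the log2 difference lay within 0.5 in either direction for 27 of the 29, the exceptions being Pla2g7, with a lower bound of -0.505, and Btg2, with an upper bound of 0.55. The intervals of Btg2, Mfng and Sox9 exclude 0 before adjustment, and the other 26 include it.

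**Figure D1:**
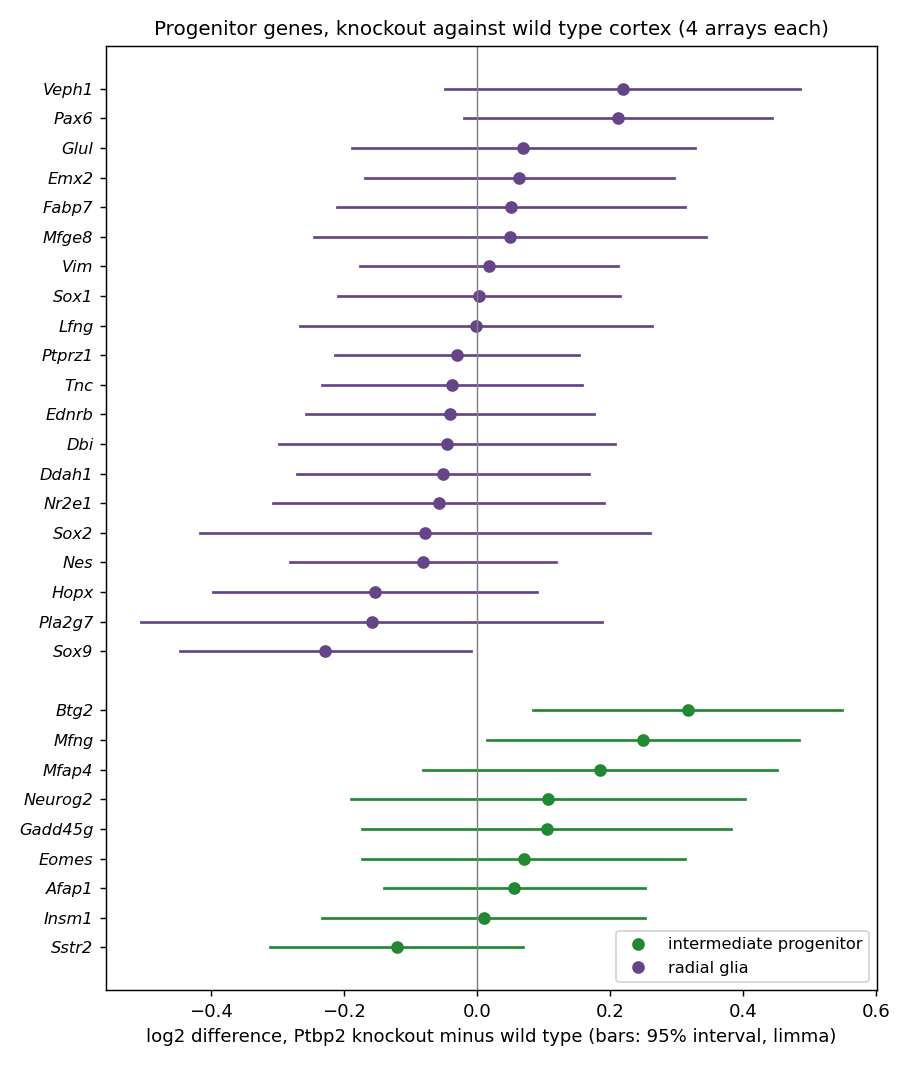
Log2 difference of each tested progenitor gene (knockout minus wild type, x axis), with the 95% limma interval as a bar and the radial glial genes (purple) above the intermediate progenitor genes (green). The intervals of 26 of the 29 genes include 0; those of Sox9, Btg2 and Mfng do not, and none of the 29 passes after adjustment.

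With all arrays the median difference was below 0 for the radial glial list and above 0 for the intermediate progenitor list, and the sign of each depended on the setting. Of the 20 radial glial genes 8 were higher and 12 lower in knockout cortex, with a median log2 difference of -0.033. Of the 9 intermediate progenitor genes 8 were higher and 1 lower, with a median of 0.11. Over all genes tested 51.0% were higher and the median was 0.0027. The intermediate progenitor count was 6 of 9 without knockout 3 or without wild type 3, 5 of 9 without both (median 0.021), 4 of 9 under array weights (median -0.042) and 7 of 9 with cyclic loess normalization. A radial glial count of 11 of 20 higher was found with no filter, without wild type 1, without wild type 4 or without knockout 3, and 3 of 20 without wild type 3. The radial glial median was above 0 with no filter (0.0057), with the filter at the 75th percentile (0.027), with the mean of probe sets (0.0071), without wild type 1 (0.017), without wild type 4 (0.0054) and without knockout 3 (0.027). Under array weights both medians were below 0.

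Levels by array are a separate summary, and their group differences need not equal these medians. The radial glial list level, the median over the 20 genes of the log2 signal minus the gene's mean over the 8 arrays, was 0.12, 0.0035, -0.19 and 0.064 in wild type 1 to 4 and 0.021, 0.00080, -0.026 and 0.033 in knockout 1 to 4. All 4 knockout arrays thus lay between the extremes of the wild type arrays. For the intermediate progenitor list the level was -0.062, -0.091, -0.13 and 0.15 in wild type 1 to 4 and 0.017, -0.016, 0.29 and -0.064 in knockout 1 to 4. Knockout 3 was the highest array and wild type 4 the next, so the groups overlapped. The same measure over all genes tested ran from -0.083 in wild type 3 to 0.092 in wild type 1.

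Wild type 1 was the highest of the 8 arrays for 8 of the 20 radial glial genes, and wild type 3 the lowest for 7. These 2 arrays also had the highest (0.092) and lowest (-0.083) level over all genes tested, so the pattern was not particular to radial glial genes. The share of all genes with their highest or lowest value on a given array was not counted. Knockout 3 was the highest array for 6 of the 9 intermediate progenitor genes and the lowest for 4 of the radial glial genes. On that array the meningeal list was also the highest, at a mean log2 signal of 9.63 against 9.09 to 9.40 on the other arrays (9 genes), and the vascular list was at 9.14 against 8.86 to 9.09 (11 genes). The part of these cells in the result was not tested.

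**Figure D2:**
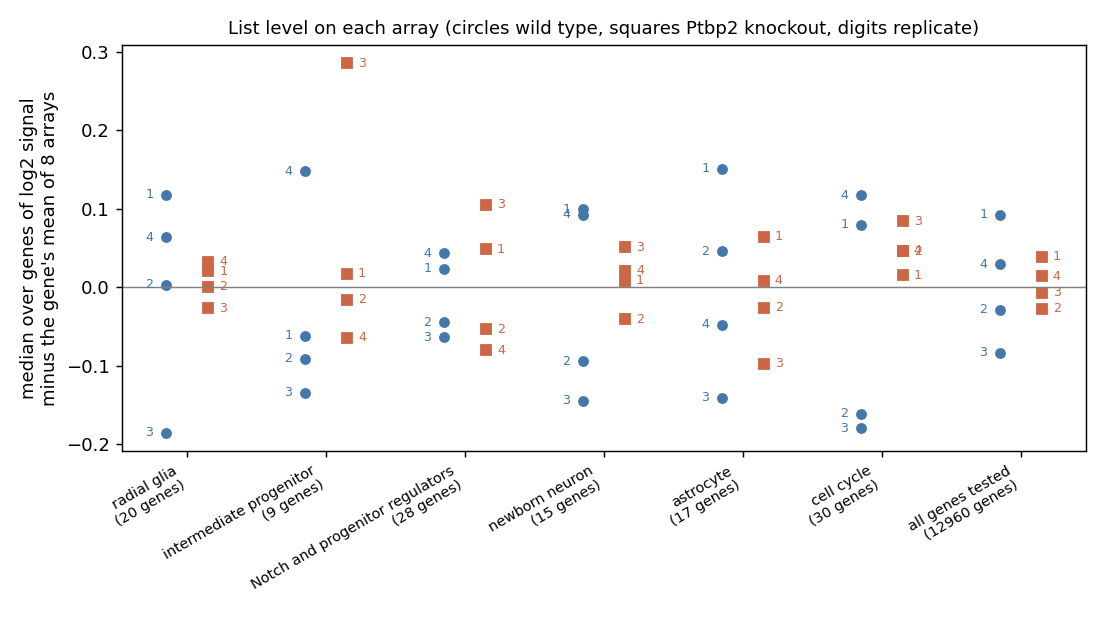
List level on each array: the y axis is the median over a list's genes of the log2 signal minus the gene's mean over 8 arrays, for wild type (circles) and Ptbp2 knockout arrays (squares), with the replicate number beside each point. Wild type 3 is lowest for radial glia (-0.19), knockout 3 stands at 0.29 for intermediate progenitors, and the groups overlap in each list drawn.

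Of the transcription factors of radial glia, Pax6, the paired-box factor that sets dorsal cortical identity and progenitor proliferation, was higher in knockout cortex by 0.21 (SE 0.11, 95% interval -0.019 to 0.44). It read 8.05, 7.72, 7.83 and 8.09 in wild type 1 to 4 and 8.06, 8.00, 8.16 and 8.32 in knockout 1 to 4. Knockout 3 and 4 lay above every wild type array and knockout 1 and 2 within the wild type range. Neither test passed for Pax6 (limma adjusted p = 0.79; two-sided exact permutation p = 0.14, where 0.0286 is the smallest that 4 against 4 arrays allow).

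Sox9, which specifies neural stem cells and later astrocytes, was the 1 member whose groups did not overlap, with its knockout values lower. Over all genes tested 3.65% did not overlap, 1.68% higher and 1.97% lower. Its values were 9.12, 8.99, 8.94 and 8.95 in wild type 1 to 4 and 8.85, 8.51, 8.92 and 8.83 in knockout 1 to 4, a difference of -0.23 (SE 0.10; limma adjusted p = 0.76; exact permutation p = 0.0286). The highest knockout value and the lowest wild type value were only hundredths of a log2 unit apart. Without knockout 2 the difference was -0.14. That array also held little choroid plexus signal: the 11 tested choroid plexus and ependymal genes had a mean of 7.40 there against 8.32 to 8.66 on the other 7 arrays, and Ttr, abundant in choroid plexus, was at 9.36. Whether Sox9 of those cells had a part was not tested.

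The other stem cell factors differed less. Sox2, a pluripotency and neural stem cell factor, read 10.51, 10.31, 10.14 and 10.44 in wild type and 10.48, 10.42, 9.66 and 10.54 in knockout 1 to 4. Knockout 3 alone was low; the difference was -0.078 with all arrays and 0.13 without that array. Sox1, its close relative, had a difference of 0.0037 (95% interval -0.21 to 0.22). Emx2, a homeodomain factor of cortical area patterning, was at 0.064, and the orphan nuclear receptor Nr2e1 (TLX), which keeps neural stem cells dividing, at -0.057. The SE of these 4 lay between 0.10 and 0.16. Hopx, a homeodomain-only protein of outer radial glia and young astrocytes, read 8.65, 8.38, 8.16 and 8.51 in wild type and 8.07, 8.30, 8.26 and 8.45 in knockout 1 to 4. Its difference was -0.15 (SE 0.11, adjusted p = 0.90) and 0.15 with no signal filter.

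The filament genes overlapped between the groups. Vim, the vimentin gene, had a wild type mean of 11.95 ± 0.12 and a knockout mean of 11.97 ± 0.044 (SD, n = 4 each), and Nes, the nestin gene, of 8.82 ± 0.081 and 8.74 ± 0.13. Knockout 4, at 8.55, was the lowest Nes value of the 8. Fabp7, the brain lipid-binding protein a known Notch target in radial glia, had means of 11.51 ± 0.25 and 11.56 ± 0.17. Glul, glutamine synthetase, read 11.23, 11.35, 10.75 and 11.12 in wild type and 11.37, 11.13, 11.13 and 11.11 in knockout 1 to 4. Its difference of 0.070 (SE 0.12) rested on wild type 3 and was -0.051 without it. Of the 11 Glul probe sets 8 were lower and 3 higher in knockout cortex, and the mean of probe sets gave -0.031. Dbi, the acyl-CoA-binding protein, was at -0.045.

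Matrix and surface genes of radial glia also stayed within their spread. Tnc, the matrix protein tenascin C, had a difference of -0.037 (SE 0.092), and Ptprz1, a receptor tyrosine phosphatase that binds tenascins, one of -0.030 (SE 0.086). Mfge8, a secreted integrin ligand, was at 0.050, Ednrb, the endothelin B receptor, at -0.040, and Lfng, a glycosyltransferase that tunes Notch, at -0.0013. Ednrb in knockout 3 was at 9.56 while the other knockout arrays were at 9.89 to 9.90. Ddah1, which breaks down asymmetric dimethylarginine, was at -0.051. Pla2g7, a secreted phospholipase, read 9.38, 8.72, 8.49 and 8.75 in wild type and 8.65, 8.77, 8.35 and 8.93 in knockout 1 to 4. Wild type 1 stood above the rest, and the difference of -0.16 (SE 0.16) was 0.024 without it.

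Veph1, a pleckstrin homology protein of the ventricular zone, had the largest positive difference of the radial glial list, 0.22 (SE 0.13, adjusted p = 0.83). It read 7.63, 7.25, 7.79 and 7.84 in wild type and 7.77, 7.80, 8.07 and 7.74 in knockout 1 to 4. Wild type 2 was low and knockout 3 high, and the other 6 arrays lay between 7.63 and 7.84. Without wild type 2 the difference was 0.093.

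Eomes, the T-box factor that defines intermediate progenitors, did not differ beyond its spread. It read 9.11, 9.09, 9.41 and 9.46 in wild type and 9.28, 9.24, 9.59 and 9.24 in knockout 1 to 4, with a difference of 0.070 (SE 0.11, 95% interval -0.17 to 0.31). Knockout 3 was the highest of the 8 arrays, and without it the difference was -0.013. Neurog2, the proneural factor that drives glutamatergic neurogenesis, was at 8.29 ± 0.23 and 8.39 ± 0.28 (SD, n = 4 each), and Insm1, a zinc finger factor that promotes delamination of progenitors, at 9.19 ± 0.18 and 9.20 ± 0.18. The 3 core transcription factors of this list thus had differences of 0.070, 0.11 and 0.011, each smaller than its SE. Without knockout 3 that of Neurog2 was 0.0031.

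The largest difference of all members was in Btg2 (TIS21), an antiproliferative gene switched on in progenitors that are about to produce neurons and also an immediate early gene. It read 8.75, 8.53, 8.82 and 8.96 in wild type 1 to 4 and 9.03, 8.91, 9.24 and 9.15 in knockout 1 to 4. Of the knockout arrays 3 lay above every wild type array, and knockout 2 lay just below wild type 4. Btg2 differed by 0.32 (SE 0.11; limma unadjusted p = 0.011, adjusted p = 0.61; exact permutation p = 0.057). With each array left out in turn the difference ran from 0.24 (without wild type 2) to 0.38, with a smallest adjusted p of 0.39.

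Btg2 was read beside a list of stress and immediate early genes. Egr1, a zinc finger immediate early factor, was at 8.02, 7.91, 7.71 and 8.10 in wild type and 8.39, 8.15, 8.28 and 8.40 in knockout 1 to 4, with no overlap, a difference of 0.37 and a limma adjusted p = 0.40. Jun, an AP-1 subunit, differed by 0.25 (adjusted p = 0.75) and Junb by 0.050. The list held 14 genes, of which 9 were tested, and Fos and Atf3 were not among them. Of the 9 tested stress and immediate early genes 6 were higher and 0 passed over all genes. Those lower were Dnajb1, Trib3 and Hmox1, at -0.11, -0.10 and -0.059. At an unadjusted p under 0.05 (limma), 2 (22.2%) were higher, against 2.70% of all genes. Egr1 and Atf4, a stress-response transcription factor at 0.21 (adjusted p = 0.83), were higher without overlap, 2 of 9 genes against 1.68% of all. Their mean log2 signal ran from 8.81 to 9.17 in wild type and 8.97 to 9.15 in knockout arrays, so the list as a whole overlapped. Its part in the Btg2 difference was not tested.

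Mfng, a Notch-modifying glycosyltransferase, read 8.40, 8.37, 8.16 and 8.42 in wild type and 8.37, 8.72, 8.80 and 8.47 in knockout 1 to 4. Knockout 2 to 4 lay above every wild type array and knockout 1 below 3 of them, with a difference of 0.25 (SE 0.11; adjusted p = 0.75; exact permutation p = 0.11). The Mfng difference was 0.11 with the mean of probe sets or the filter at the 75th percentile, and 0.14 under array weights. Of the 13 Mfng probe sets 9 were higher and 4 lower. In 2 of them (15.4%, against 4.24% of all probe sets) the groups did not overlap, both lower in knockout. Mfap4, a microfibril-associated protein, was at 0.19 (SE 0.13), with knockout 3 at 8.94 and the other 7 arrays between 8.24 and 8.48. Without knockout 3 its difference was 0.051. Sstr2, a somatostatin receptor of migrating newborn neurons and intermediate progenitors, was the 1 gene of its list that was lower. It read 9.09, 8.91, 9.06 and 9.14 in wild type and 8.99, 8.86, 8.98 and 8.87 in knockout 1 to 4 (difference -0.12, SE 0.090, adjusted p = 0.90). Gadd45g, a growth arrest gene under proneural control, was at 0.11 and the actin-filament protein Afap1 at 0.057.

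**Figure D3:**
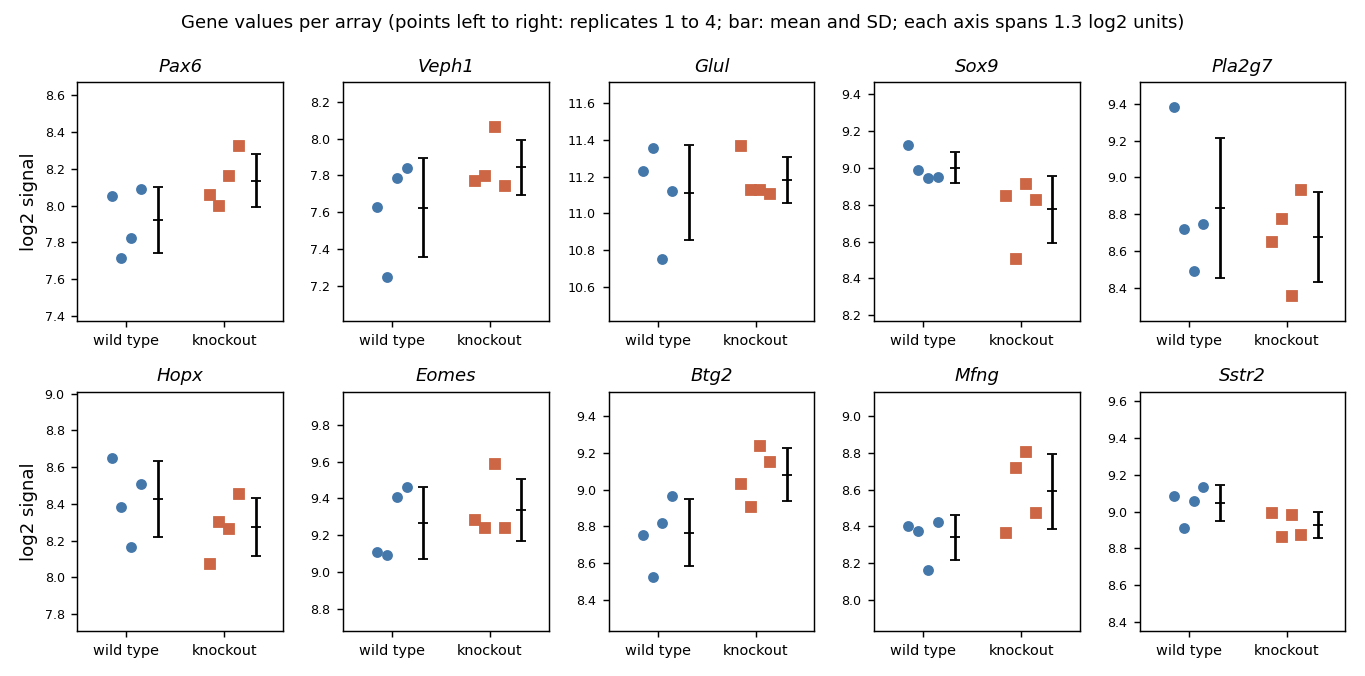
Log2 signal (y axis, of the same length in each panel) of 10 progenitor genes on the 4 wild type arrays (circles) and 4 knockout arrays (squares), replicates 1 to 4 from left to right, with the mean and SD beside them. Sox9 is the 1 gene of the 10 in which no knockout value reaches a wild type value; 3 knockout values of Btg2 lie above 8.96, the highest wild type value.

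Single probe sets showed how even each difference was along its gene. The 29 members had 386 retained probe sets, of which 0 passed over all probe sets, where 288 of 312767, or 0.0921%, did (limma). At an unadjusted p under 0.05 there were 22 (5.7%, against 7.44% of all), and in 12 (3.11%, against 4.24%) the groups did not overlap. On simulated arrays the adjusted test recovered 56% of single probe set shifts of 1 log2 unit. Probe sets of 1 gene share the same RNA samples and are no replicates, so the counts that follow are descriptions.

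In Pax6, 26 of 27 probe sets were higher in knockout cortex, by up to 0.39, and the last was at -0.0031. A share that high was found in 0.557% of the 3233 genes with at least 20 retained probe sets. In 4 of the 27 (14.8%, against 4.24% of all probe sets) the groups did not overlap. An unadjusted p under 0.05 (limma) was reached by 8 of the 27 (29.6%, against 7.44% of all). Probe set 5410962, 1 of the 4 without overlap, read 7.69, 7.45, 7.60 and 7.70 in wild type and 7.87, 7.90, 7.85 and 7.86 in knockout 1 to 4 (limma adjusted p = 0.62). Between 23 and 27 probe sets were higher when 1 array was left out, and 26 without wild type 3 and knockout 3. The Pax6 shift, though not past the test, was thus spread over nearly all the gene's retained probe sets. Of its 45 probe sets with 1 symbol, 27 were retained.

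All 5 Btg2 probe sets were higher, by 0.17 to 0.40, and all 8 of Sox9 were lower, with log2 differences of -0.25 to -0.0090 (6 of 8 lower without wild type 1). An unadjusted p under 0.05 (limma) was reached by 3 of the 5 Btg2 and 0 of the 8 Sox9 probe sets, against 7.44% of all. The groups did not overlap in 0 of the 5 and 1 of the 8, against 4.24% of all. Ddah1 had 12 of 13 lower, and 9 without wild type 3 and knockout 3. In Ptprz1 36 of 46 were lower with a median of -0.10, a share reached by 11.2% of the 3233 genes. Tnc was uneven between summaries: 24 of its 31 probe sets were higher, with a median of 0.085, although the per-array gene median gave -0.037; the mean of the probe sets gave 0.079. A share as high as that of Tnc was found in 12.8% of those genes.

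**Figure D4:**
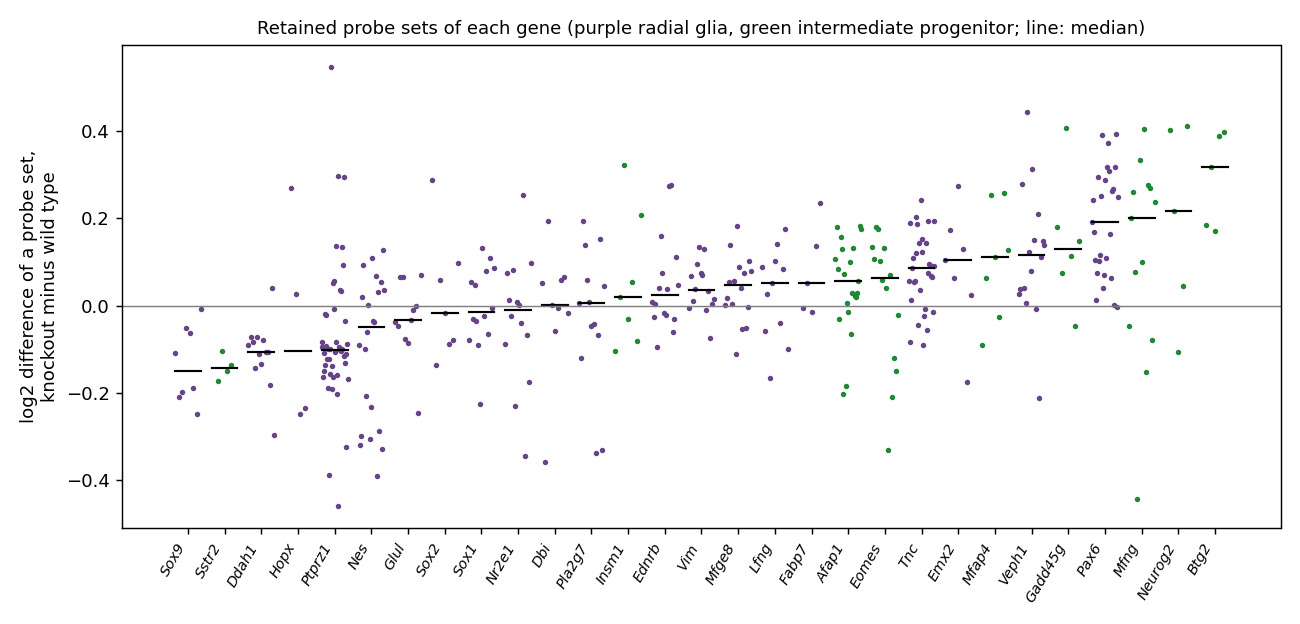
Log2 difference (knockout minus wild type, y axis) of each retained probe set, by gene, ordered by the median (black line), with radial glial genes in purple and intermediate progenitor genes in green. Nearly all Pax6 points lie above 0 (26 of 27), all Sox9 points lie below it, and the highest single point, at 0.55, is Ptprz1 probe set 4792477.

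Probe set usage asks whether a probe set differs from the rest of its gene, as an alternative exon would. Of the 386 probe sets 1 passed in limma diffSplice (0.259%), against 0.212% of 195604 tested, and 0 in the splicing index, against 0.00869%. On simulated arrays whose probe sets differed in spread within a gene, diffSplice made more false calls than the whole table's calls here, and few where the spread was equal, so its adjusted p-values cannot be read as held at the 0.05 rate. At an unadjusted p under 0.05 there were 12 in diffSplice and 18 in the splicing index, 3.11% and 4.66%, against 4.57% and 5.27% of all. On the simulated arrays of unequal spread, the splicing index recovered 48% of shifts of 1 log2 unit and diffSplice 95%. The 0 calls of the index thus do not exclude shifts of that size. The 1 call was Ptprz1 probe set 4792477, with a deviation of 0.63 from its gene (diffSplice adjusted p = 0.042; splicing index adjusted p = 0.92). It read 7.58, 8.41, 8.72 and 8.25 in wild type and 8.97, 8.93, 8.93 and 8.32 in knockout 1 to 4. Wild type 1 was far below the others and knockout 4 lay within the wild type range, so the groups overlapped. The call ended without wild type 1 (deviation 0.40, adjusted p = 0.61), wild type 4 (0.18), knockout 1 (0.48), knockout 2 (0.095) or knockout 3 (0.37), without wild type 3 and knockout 3 together (0.052), with quantile (0.064) and cyclic loess normalization (0.063) and with no filter (0.050), each an adjusted p from diffSplice.

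A second probe set, Mfng 4509039, was chosen after its values were seen because it went against its gene. It read 7.81, 7.83, 7.62 and 7.67 in wild type and 6.86, 7.60, 7.16 and 7.54 in knockout 1 to 4, with no overlap. Its deviation of -0.60 did not pass with all arrays (diffSplice adjusted p = 0.10). It passed without knockout 2, without knockout 4 and with array weights. The exon that either probe set covers was not used here.

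Regulators around these genes were read from a further list. Of 28 tested genes of Notch signalling and other progenitor regulators 15 were higher and 13 lower, with a median of 0.019. Of these 0 passed over all genes (limma), and 1 (3.57%, against 6.49% of all genes) had an unadjusted p under 0.05. That gene was Zfp36l1, an RNA-binding protein of mRNA decay, higher by 0.26 with no overlap between groups (adjusted p = 0.68). The Notch effectors Hes1 and Hes5 were at -0.078 and 0.054, the ligand Dll1 at 0.085 and the receptor Notch1 at 0.039. Rbpj, the DNA-binding partner of Notch, was at 0.19 (SE 0.092), and Olig2 and Sox21 were lower without overlap, at -0.21 and -0.14 (adjusted p = 0.77 and 0.83). In all, 3 of the 28 (10.7%) did not overlap between groups, against 3.65% of all genes.

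Neighbouring cell classes were read from further lists. Of 15 newborn neuron genes 11 were higher (median 0.047), and of 17 astrocyte genes 13 were lower (median -0.063). Of 30 cell cycle genes 21 were higher (median 0.088), and 0 passed the test in each list (limma). At an unadjusted p under 0.05 there were 0, 2 (11.8%) and 2 (6.67%) in turn, against 6.49% of all genes. The astrocyte members that stood out went in opposite directions: Id3, an inhibitor of helix-loop-helix factors that other cells also express, was at 0.41 and Aldh1l1, a folate enzyme of astrocytes, at -0.28 (adjusted p = 0.54 and 0.75). The mean astrocyte signal ran from 9.50 to 9.78 in wild type and 9.51 to 9.69 in knockout arrays, and that of the cell cycle genes from 8.48 to 8.77 and 8.66 to 8.74. In both lists the knockout arrays lay inside the wild type range. The 8 of 9 intermediate progenitor genes that were higher stood beside other one-sided lists in the same samples. Higher in knockout were 10 of 11 vascular genes (median 0.12) and 7 of 8 microglial genes (median 0.21), while 0 of 11 choroid plexus and ependymal genes (median -0.24), 0 of 7 oligodendrocyte lineage genes (median -0.11) and 1 of 12 interneuron genes (median -0.13) were higher. None of these genes passed over all genes (limma). At an unadjusted p under 0.05 there were 2 vascular (18.2%), 1 microglial (12.5%) and 3 choroid plexus and ependymal genes (27.3%). There were also 2 oligodendrocyte lineage genes (28.6%) and 1 interneuron gene (8.33%), against 6.49% of all genes. Microglial genes ran from 7.83 to 8.10 and from 8.07 to 8.31 and interneuron genes from 9.31 to 9.56 and from 9.19 to 9.40 in wild type and knockout arrays in turn. Choroid plexus and ependymal genes ran from 8.44 to 8.66 in wild type. They were at 8.32, 7.40, 8.62 and 8.52 in knockout 1 to 4, with knockout 2 far below the rest. The part of any of these cells in the progenitor values was not tested.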

How the data were processed

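The deposited log2 signals per probe set were made by the authors, per the submitters' processing notes, with Affymetrix Expression Console and RMA, and the notes name the build mm9 with no version or role. RMA equalizes signal distributions between arrays and compresses low signals. Of 625534 probe sets, 303629 had 1 gene symbol in the platform annotation, 5892 several and 316013 none; 3919 of 21634 symbols were updated through RefSeq (GRCm38.p6), which also gave the promoters. Probe sets with a mean at or above 6.84, the median over probe sets, were retained (312767). A gene's value is the median of its retained probe sets on an array, for genes with at least 4.

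Levels and single probe sets were tested in R 4.3.3 by limma 3.58.1 (lmFit, then eBayes), and usage with diffSplice on 195604 probe sets, Ptbp2 left out, with Benjamini-Hochberg adjustment at 0.05 over each whole table and no covariate. The scripts were tested on simulated arrays. Members and lists were chosen with earlier results of these data known. Values on every array are given for Pax6, Eomes, the 3 largest differences in each direction among radial glial genes and 2 among intermediate progenitor genes, and members without overlap; Sox2 and other genes outside the rule were added after their values were seen. Alternatives were other filters, normalizations, summaries, weights and covariates, and arrays left out. Same-numbered arrays of the groups had correlations of deviations from the group mean of 0.25, -0.0039, 0.033 and 0.17, and the labels state no pairing.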

Additional observations from a re-analysis of the deposited data

Results flagged for a closer look

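In the knockout group, 1 array stood apart from the other 3 in 5 of the genes described, by a gap, as a share of the group's range, above Dixon's 95% critical value; 62 groups of 4 values were examined, and chance flags about 1 in 20 groups. Knockout 3 was low in Sox2 (9.66 against 10.42 to 10.54) and in Ednrb (9.56 against 9.89 to 9.90) and high in Eomes (9.59 against 9.24 to 9.28). Knockout 4 was low in Nes (8.55 against 8.78 to 8.83). Knockout 1 was high in Glul (11.37 against 11.11 to 11.13). No wild type group was flagged.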

How the results depend on the processing

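No progenitor gene passed under any alternative: 312 values under other settings and 232 with 1 array left out had adjusted p of at least 0.30 and 0.39, and no member probe set passed in level. Medians of both lists moved by less than the spread of the list level between replicates, with 1 array left out from -0.048 to 0.027 (radial glia) and 0.042 to 0.18 (intermediate progenitors). Of the member values, 39 and 30 changed sign, all in members with intervals that include 0; except where stated here the cause was not tested. With no filter Hopx was at 0.15, Tnc 0.036, Dbi 0.0039, Lfng 0.021 and Sox1 -0.065. At the 75th percentile Tnc was at 0.029, Lfng 0.10 and Pla2g7 0.044. Sox1 was at -0.0066 with quantile normalization and -0.0011 with Xist as a covariate, and cyclic loess gave Sox1 -0.012, Insm1 -0.0084 and Ptbp1 -0.0073. Array weights gave Vim -0.046, Fabp7 -3.3e-06, Tnc 0.038, Ptprz1 0.029, Ednrb 0.060, Emx2 -0.016, Eomes -0.054, Neurog2 -0.081, Insm1 -0.12, Gadd45g -0.042 and Ptbp1 -0.073. The mean of probe sets gave Sox2 0.018, Glul -0.031, Tnc 0.079, Ednrb 0.049, Lfng 0.028 and Sox1 -0.0035. Without wild type 3 and knockout 3 together, chosen after seeing the data, Sox2 was at 0.057, Vim -0.024, Glul -0.032, Ddah1 0.051, Mfge8 -0.056, Ednrb 0.038, Emx2 -0.021, Sox1 -0.024, Neurog2 -0.039, Insm1 -0.11, Gadd45g -0.072 and Ptbp1 -0.010. With 1 array left out the ranges that crossed 0 were Tnc -0.086 to 0.0094, Dbi -0.14 to 0.043, Lfng -0.14 to 0.069, Pla2g7 -0.27 to 0.024, Sox1 -0.065 to 0.067, Insm1 -0.065 to 0.084, Ptbp1 -0.040 to 0.056, Vim -0.040 to 0.051, Fabp7 -0.047 to 0.14, Glul -0.051 to 0.15, Mfge8 -0.11 to 0.15, Emx2 -0.018 to 0.15, Gadd45g -0.047 to 0.18, Nr2e1 -0.14 to 0.033, Sox2 -0.17 to 0.13, Ddah1 -0.11 to 0.020, Ednrb -0.084 to 0.044 and Eomes -0.013 to 0.14.

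The count of genes past the threshold over the whole table, 15, was 7 with no filter, 25 at the 75th percentile, 24 with quantile normalization, 71 with array weights, 37 with the mean of probe sets, 5 with a minimum of 1 probe set, 9 without wild type 3 and knockout 3, and 7 to 15 with 1 array left out. That of single probe sets, 288, was 152 with no filter, 461 with trend and robust, 670 with array weights, 187 with the replicate block, 107 without wild type 3 and knockout 3, and 132 to 285 with 1 array left out. That of usage, 414, was 889 with no filter, 139 at the 75th percentile, 1246 with array weights, 17 with the splicing index, 247 without wild type 3 and knockout 3, and 159 to 856 with 1 array left out. Member probe sets with differential usage numbered 0 at the 75th percentile, with quantile or cyclic loess normalization, with the splicing index and without wild type 3 and knockout 3, 2 with array weights, and 0 to 2 with 1 array left out; with no filter the 1 call was in Vim. With the replicate block, a paired fit, 22 genes passed in level and 584 probe sets in usage. Among members 0 genes passed in level, and 1 probe set passed in usage, Ptprz1 4792477 (diffSplice adjusted p = 0.037). The replicate numbers are not shown to pair the samples.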
